A study of Mus musculus with 12 samples.

Results

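The genes of cholesterol and fatty acid synthesis were followed in mouse colon after local removal of enteric neurons. The module holds 30 genes, listed by pathway membership and matched by symbol, out of 27179 genes in the expression table. All 30 were found. RNA of full-thickness colon, taken at an inked injection site, was sequenced in 12 libraries, and levels are in TPM, a transcript's share of the library scaled to gene length. The 5 control libraries are from mice labelled R26-iDTR and Cre-negative, littermates that carry the Cre-dependent diphtheria toxin receptor allele without Cre. The 7 ablated libraries are from BAF53b-Cre::R26-iDTR mice, in which the promoter of BAF53b (the neuronal gene Actl6b) drives the Cre that switches the receptor on. Mice of both groups underwent laparotomy and received diphtheria toxin, so neither surgery nor toxin separates the groups. The toxin was injected into the muscle layer as 4 µL at 0.33 ng/µL in 10% India ink. The labels give no age, sex or time after injection, and do not say whether each library is a separate mouse. The spread behind each p-value is therefore that between libraries, which may be technical in part.

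Cells make cholesterol from acetyl-CoA through mevalonate, farnesyl diphosphate, squalene and lanosterol, and make fatty acids from acetyl-CoA through malonyl-CoA. Both arms are controlled by the SREBP transcription factors, which sit in the endoplasmic reticulum as precursors. When sterols are low the escort protein Scap carries the precursors to the Golgi, where they are cut and released to the nucleus; when sterols are high the Insig proteins hold Scap back. Sterol genes of this pathway are known to be switched on together by SREBP2 with the CCAAT-binding factor NF-Y, and fatty acid genes mainly by SREBP1c.

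The promoters of the module were searched for letters related to these factors, and 4 are shown because they carry the contrasts described further on. Hmgcs1 has both kinds of match, Insig1 had the smallest p-value among the members, Idi1 had the largest SD between libraries, and Mvk has the most CCAAT matches of any member promoter, 5. The sequences are the 250 bases before the gene start, 5′ to 3′ on the gene's strand, from RefSeq (GRCm38.p6). Capitals mark CACNCCA, a core related to the sterol regulatory element, and CCAAT, each searched on both strands. The intervals, all on the plus strand, are chr13:119690101-119690350 for Hmgcs1, chr5:28071162-28071411 for Insig1, chr13:8885356-8885605 for Idi1 and chr5:114444019-114444268 for Mvk.
Hmgcs1: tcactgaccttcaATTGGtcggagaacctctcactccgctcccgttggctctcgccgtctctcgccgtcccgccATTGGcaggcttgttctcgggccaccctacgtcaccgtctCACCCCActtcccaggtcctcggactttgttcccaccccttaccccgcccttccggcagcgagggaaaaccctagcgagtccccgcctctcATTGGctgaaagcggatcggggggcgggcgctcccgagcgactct
Insig1: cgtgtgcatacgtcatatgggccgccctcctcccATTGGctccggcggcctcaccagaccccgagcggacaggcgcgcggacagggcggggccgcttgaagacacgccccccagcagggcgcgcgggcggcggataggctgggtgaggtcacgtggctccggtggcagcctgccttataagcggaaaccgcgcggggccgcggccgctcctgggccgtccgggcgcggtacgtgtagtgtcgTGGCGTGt
Idi1: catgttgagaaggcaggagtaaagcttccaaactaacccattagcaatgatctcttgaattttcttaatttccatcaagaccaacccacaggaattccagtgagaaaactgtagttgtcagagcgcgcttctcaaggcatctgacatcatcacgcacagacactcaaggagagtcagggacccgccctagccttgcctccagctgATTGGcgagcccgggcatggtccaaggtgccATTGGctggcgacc
Mvk: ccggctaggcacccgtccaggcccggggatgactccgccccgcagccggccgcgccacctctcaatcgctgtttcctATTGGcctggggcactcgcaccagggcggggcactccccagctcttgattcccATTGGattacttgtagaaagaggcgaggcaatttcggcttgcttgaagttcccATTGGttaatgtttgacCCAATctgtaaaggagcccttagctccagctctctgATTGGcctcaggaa
The table held promoters of 24 of the 30 members, 32 promoters in all, some genes having several starts. CCAAT was present in 20 of these 32 (62.5%), belonging to 19 genes, against 33.8% of all 32851 promoters of the same length. CACNCCA was present in 7 of the 32 (21.9%), belonging to Acat2, Hmgcs1, Insig1, Insig2, Msmo1 and Srebf2, against 15.6% of all promoters. In an Insig2 promoter a CACNCCA and a CCAAT match overlapped. These are matches of letters, with no binding measured.

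The libraries held 13.4 to 26.9 M reads, as recovered from the TPM values, and every member had at least 61 reads in each library (Idi1 in ablated 1) and at most 28925 (Scd2 in ablated 4). Of 12 markers of enteric neurons, 11 fell in the ablated libraries (limma, adjusted p under 0.05), and the summed level of the 12 was 158 to 338 TPM in controls and 23.6 to 54.5 TPM after ablation. Actl6b, whose promoter drives Cre, was at 0.971 ± 0.372 TPM (SD, n = 5) and 0.447 ± 0.224 TPM (SD, n = 7). Its log2 difference of -0.63 did not pass (limma, adjusted p = 0.222). With 3 to 29 reads per library it lay near the floor, where the 0.5 TPM added before taking logs shrinks a log2 difference. Ablated 1 stood apart from all others: 25.6% of its TPM was mitochondrial, against 5.20% to 14.2% in the other ablated and 7.44% to 13.3% in the control libraries. In this tissue mixture, fewer cells of a type and less RNA per cell cannot be told apart.

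No member passed the test between groups. Genes that reached 0.5 TPM in 5 or more libraries were fitted with limma on log2(TPM + 0.5), 16164 genes with all 30 members among them, and a gene was called at an adjusted p under 0.05 over all of these. Of the 30 members, 0 were called higher and 0 lower, against 0.421% of all genes called higher and 1.01% called lower (1.43% in all). At an unadjusted p under 0.05 stood 7 members, Insig1, Srebf1, Pmvk, Elovl6, Lss, Acaca and Fdps, all with the higher mean in the ablated libraries; across all genes 7.07% reached that p on the higher side. A positive log2 difference was found in 26 of 30 members (86.7%), against 55.7% of all genes, and the median difference was 0.30 among members and 0.03 among all genes. Sterol and fatty acid genes are commonly controlled together, so their differences are not independent of each other. The 2 groups overlapped for every member; in 1.33% of all genes every ablated library lay above every control library, and in 1.55% below.

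**Figure D1:**
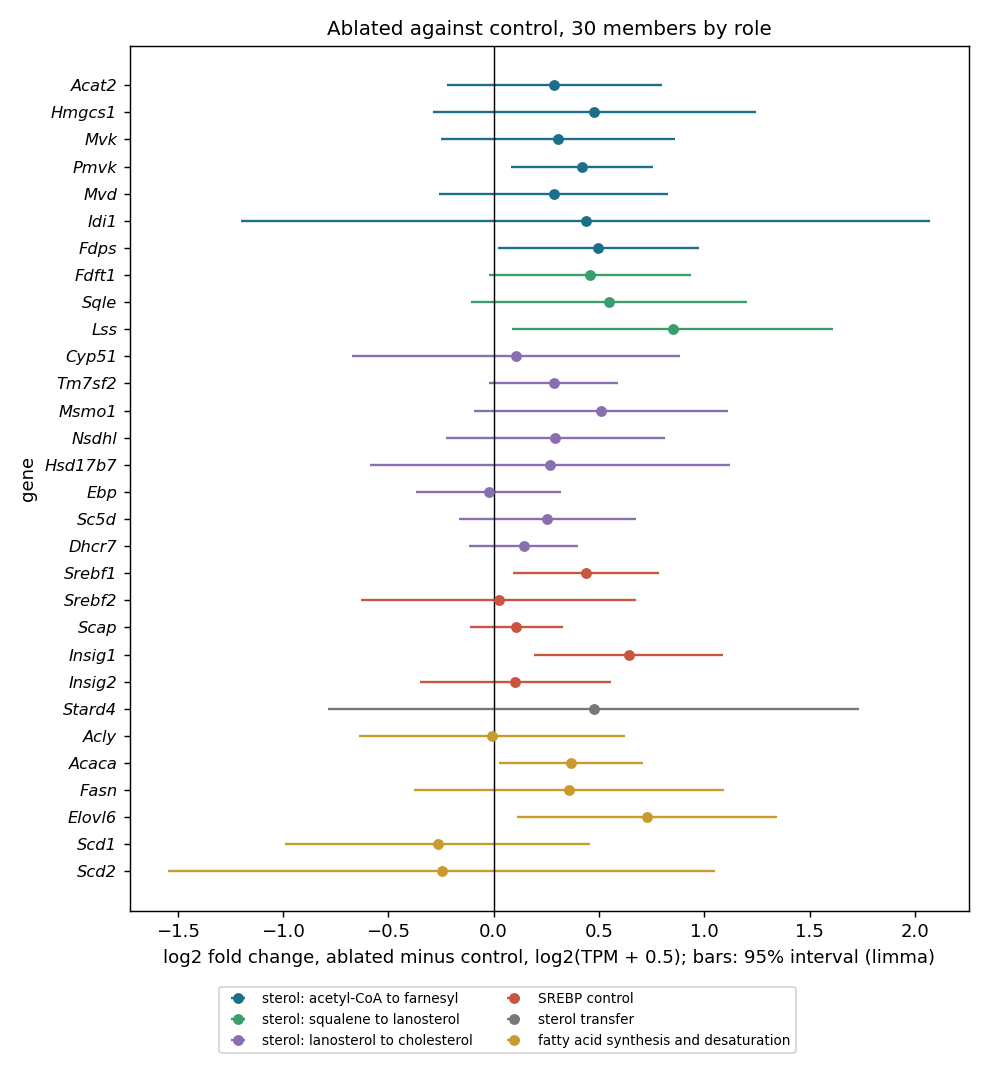
Log2 difference (ablated minus control) of each of the 30 members from the limma fit on log2(TPM + 0.5), with 95% intervals as horizontal bars, ordered by step of the pathway. The points run from -0.27 (Scd1) to 0.85 (Lss), 26 lie right of 0, and no member reached an adjusted p under 0.05.

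The early steps, from acetyl-CoA to farnesyl diphosphate, are covered by 7 members. All 7 had positive log2 differences, from 0.29 to 0.50, with a median of 0.42, and none was called. Hmgcs1, which makes HMG-CoA from acetoacetyl-CoA and acetyl-CoA, was at 150.2, 139, 90.6, 129 and 233 TPM in controls 1 to 5, and at 64.8, 215, 241, 395, 189, 218 and 213 TPM in ablated 1 to 7. Ablated 1 was below every control, 4 of the other ablated libraries lay between control 1 and control 5, and ablated 3 and ablated 4 were above every control. The means were 148 ± 52.3 TPM (SD, n = 5) and 219 ± 96.9 TPM (SD, n = 7), and the log2 difference was 0.48 (95% interval -0.29 to 1.24, limma adjusted p = 0.681). Acat2, the cytosolic thiolase that makes acetoacetyl-CoA, was at 26.2 to 64.1 TPM in controls and 26.9 to 71.8 TPM in ablated libraries.

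The next enzymes turn mevalonate into isoprenoid units. Mevalonate kinase Mvk was at 22.7 to 49.9 TPM in controls, with a median of 23.5, and at 21.2 to 62.3 TPM in ablated libraries, with a median of 34.3. Phosphomevalonate kinase Pmvk was at 32.4, 22.6, 20.3, 27.2 and 37.0 TPM in controls and at 29.4 to 46.4 TPM, median 36.3, in ablated libraries. Only ablated 4, ablated 6 and ablated 7 were above the highest control for Pmvk, while all ablated libraries were above controls 2, 3 and 4. Its log2 difference was 0.42 (0.08 to 0.76; limma adjusted p = 0.278). The decarboxylase Mvd was at 31.7 to 82.9 TPM in controls and 33.1 to 88.2 TPM in ablated libraries. Farnesyl diphosphate synthase Fdps was at 109, 98.9, 66.9, 97.7 and 169 TPM in controls and at 99.8 to 234 TPM, median 147, in ablated libraries. For Fdps only ablated 4 exceeded control 5, and the log2 difference was 0.50 (0.02 to 0.97; limma adjusted p = 0.391).

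Idi1, the isomerase that supplies dimethylallyl diphosphate, had the largest SD of log2 levels of any member in both groups, 0.742 among controls and 1.80 among ablated libraries. It was at 17.1, 6.48, 5.34, 13.3 and 16.3 TPM in controls 1 to 5, a 3.21-fold range. It was at 2.74, 4.60, 17.2, 80.8, 29.3, 4.55 and 46.9 TPM in ablated 1 to 7, a 29.5-fold range. Ablated 4, 5 and 7 were well above every control, ablated 3 was just above control 1, and ablated 1, 2 and 6 were below every control. The mean log2 difference was 0.44 with an interval of -1.20 to 2.07 (limma adjusted p = 0.916), an interval that holds both a 2-fold decrease and a 2-fold increase. Its promoter, printed above, holds 2 CCAAT matches and no CACNCCA.

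The 3 members that make lanosterol from farnesyl diphosphate had the highest median log2 difference of the steps with several members, 0.55. Lss, lanosterol synthase, closes squalene epoxide into the first sterol. It was at 9.45, 12.3, 7.59, 12.9 and 27.4 TPM in controls and at 10.1, 22.9, 27.8, 48.8, 17.5, 24.8 and 25.6 TPM in ablated libraries. All ablated libraries but ablated 1 were above controls 1 to 4, and only ablated 3 and ablated 4 were above control 5. The means were 13.9 ± 7.81 TPM (SD, n = 5) and 25.4 ± 11.96 TPM (SD, n = 7), a ratio of 1.82, and the log2 difference was 0.85 (0.09 to 1.61; limma adjusted p = 0.349). Sqle, squalene epoxidase, was at 35.1 to 93.0 TPM in controls, median 51.8, and at 35.3 to 146 TPM in ablated libraries, median 82.0. Squalene synthase Fdft1 was at 49.2 to 112 TPM in controls, median 59.4, and at 60.5 to 147 TPM in ablated libraries, median 90.0. For both genes, ablated 2 to 7 lay above controls 1 to 4, and the adjusted p was 0.534 for Sqle and 0.454 for Fdft1 (limma).

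**Figure D2:**
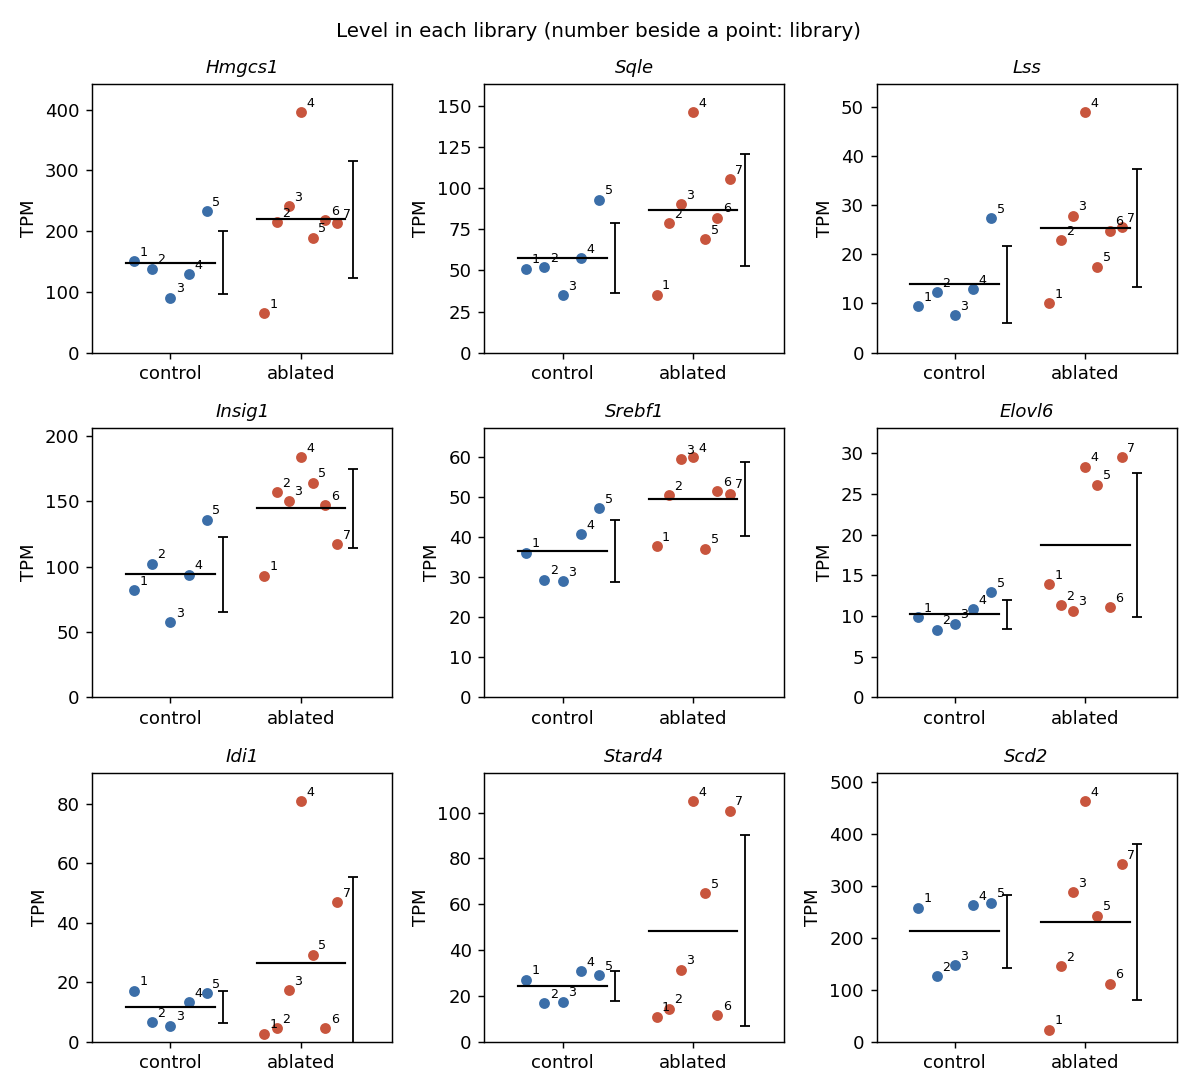
Level in TPM, on an axis that starts at 0, of 9 members in each library, with points for libraries, horizontal lines for group means and error bars for the SD (n = 5 control, n = 7 ablated); where the mean minus the SD is below 0 the bar stops at the axis. For Lss the control 5 point (27.4 TPM) lies among the ablated points, and for Idi1 the ablated points run from 2.74 to 80.8 TPM.

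Of the 8 members that turn lanosterol into cholesterol, 7 had positive log2 differences, with a median of 0.26, and none was called. Msmo1 oxidises the methyl groups to be removed, and it was at 104, 106, 72.9, 123 and 177 TPM in controls and at 81.7 to 306 TPM, median 157, in ablated libraries. Its log2 difference of 0.51 was the largest of this step (-0.09 to 1.11, limma adjusted p = 0.53). Nsdhl and Hsd17b7 act with Msmo1 in taking off these groups. Nsdhl was at 19.2 to 40.9 TPM in controls and 17.2 to 53.0 TPM in ablated libraries, and Hsd17b7 at 5.63 to 11.5 TPM and 2.171 to 21.1 TPM. Cyp51, the lanosterol demethylase, was at 34.3 to 81.0 TPM in controls and 19.3 to 119.7 TPM in ablated libraries, with medians of 45.1 and 48.8.

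The reductase Tm7sf2 was at 25.8, 28.6, 30.1, 35.1 and 43.8 TPM in controls and at 29.7 to 45.8 TPM, median 39.4, in ablated libraries. Its log2 difference was 0.28 (-0.02 to 0.59), and ablated 4 alone exceeded the highest control. Ebp, the sterol isomerase, had the same level in both groups to within the spread, 90.0 ± 6.66 TPM (SD, n = 5) and 90.6 ± 21.2 TPM (SD, n = 7), with a log2 difference of -0.02 (-0.37 to 0.32). The desaturase Sc5d was at 48.9 to 69.6 TPM in controls and 40.4 to 94.9 TPM in ablated libraries. Dhcr7, the reductase of a last step to cholesterol, was the 1 member whose highest level of all was in control 5, at 70.9 TPM, and its 7 ablated libraries kept between 51.5 and 69.3 TPM.

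Insig1 was the member with the smallest p-value. It retains the Scap-SREBP complex in the endoplasmic reticulum and is itself a known SREBP target. It was at 81.9, 102, 57.5, 93.8 and 136 TPM in controls 1 to 5 and at 93.0, 157, 150.4, 184, 164, 147 and 117 TPM in ablated 1 to 7. Of the ablated libraries, 5 lay above every control; ablated 1 lay between control 1 and control 4, and ablated 7 between control 2 and control 5. The means were 94.3 ± 28.7 TPM (SD, n = 5) and 145 ± 30.5 TPM (SD, n = 7), 1.54 times as high. The log2 difference was 0.64 (0.19 to 1.09), and the limma adjusted p of 0.196 was the lowest among the members.

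The paralogue Insig2, which has the same retaining role, was at 32.1, 24.9, 26.6, 33.7 and 29.0 TPM in controls and 18.1 to 44.1 TPM, median 33.2, in ablated libraries, with a log2 difference of 0.10 (-0.35 to 0.56). The log2 ratio of Insig1 to Insig2 within a library was 1.62 ± 0.47 (SD, n = 5) in controls and 2.16 ± 0.40 (SD, n = 7) in ablated libraries, above the control mean in 6 of 7. The difference of 0.54 did not pass an exact permutation test over the 792 ways to label 5 of the 12 libraries as control (two-sided p = 0.0707, adjusted over 4 ratios p = 0.283; the smallest p possible is 0.00253).

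Srebf1 encodes SREBP1, the factor tied mainly to fatty acid genes. It was at 36.2, 29.4, 29.1, 40.8 and 47.3 TPM in controls 1 to 5 and at 37.8, 50.5, 59.5, 60.1, 37.1, 51.6 and 50.9 TPM in ablated 1 to 7. Ablated 1 and ablated 5 lay within the control range and the other 5 above it, and the log2 difference was 0.44 (0.09 to 0.79; limma adjusted p = 0.27). Srebf2 encodes SREBP2, the factor tied mainly to sterol genes. It was at 52.3, 46.1, 46.8, 60.4 and 76.0 TPM in controls and 24.2, 41.7, 70.3, 90.9, 73.1, 41.7 and 90.3 TPM in ablated libraries. Ablated 4 and ablated 7 were above every control and ablated 1, 2 and 6 below every control, and the log2 difference was 0.02 (-0.63 to 0.68).

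The log2 ratio of Srebf1 to Srebf2 was nearly constant among controls, -0.62 ± 0.07 (SD, n = 5), and ranged from -0.97 (ablated 5) to 0.63 (ablated 1) after ablation, with a mean of -0.20 ± 0.62 (SD, n = 7). Ablated 1, 2 and 6 had more Srebf1 than Srebf2, as no control had, and ablated 5 and ablated 7 had lower ratios than any control. The difference of means, 0.41, did not pass (exact permutation, two-sided p = 0.192, adjusted p = 0.384), and the difference in spread was not tested. Scap, the escort protein, was the most even of the 5 SREBP control members, at 23.3 to 27.99 TPM in controls and 23.1 to 33.3 TPM in ablated libraries. Its highest level was in ablated 1, in which 26 of the 30 members had their lowest ablated level.

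Stard4, a soluble protein that carries cholesterol between membranes, had the same ablated libraries above and below the controls as Idi1. It was at 27.0, 16.8, 17.5, 30.8 and 29.1 TPM in controls and at 10.98, 14.4, 31.4, 105, 64.9, 11.5 and 101 TPM in ablated libraries. Ablated 3, 4, 5 and 7 were above every control and ablated 1, 2 and 6 below every control. The log2 difference was 0.48 (-0.78 to 1.74, limma adjusted p = 0.857), while the means in TPM were 24.2 ± 6.64 (SD, n = 5) and 48.4 ± 41.7 (SD, n = 7), with ablated 4 and ablated 7 at the top.

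**Figure D3:**
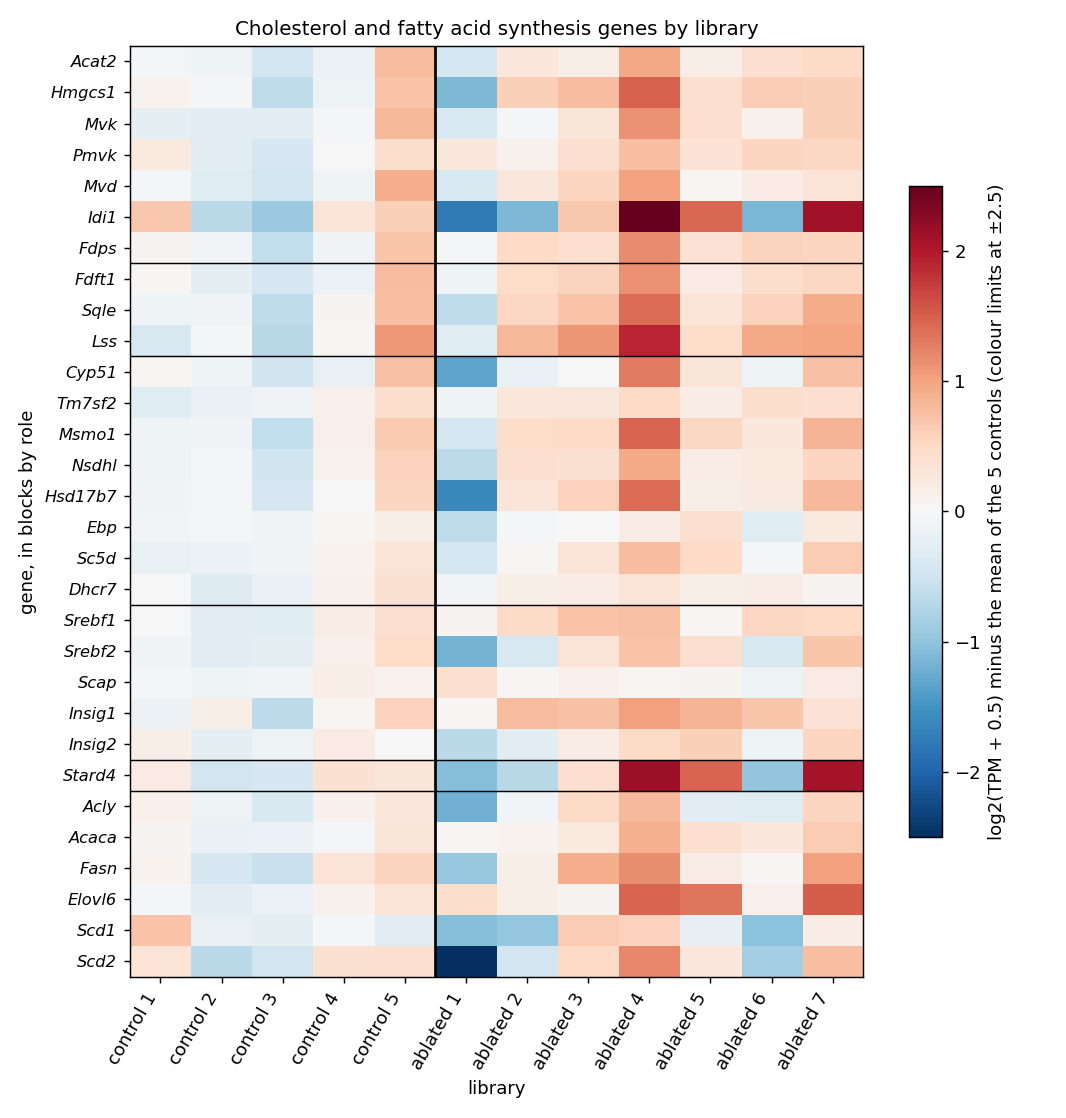
Log2 level of each of the 30 members (rows, by step) in each of the 12 libraries (columns), as the difference from the mean of the 5 control libraries in log2(TPM + 0.5) units. Ablated 4 is above the control mean in most rows and ablated 1 below it in most rows, and Idi1, Stard4 and Scd2 have the strongest contrast among the ablated libraries.

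The 6 fatty acid members were split, 3 with positive and 3 with negative log2 differences, and a median of 0.18. This split depends on the libraries used. With ablated 1 left out, 5 of 6 were positive, Acly at 0.20 and Scd2 at 0.23, and Scd1 stayed at -0.13. It was 4 of 6 when control 1, control 4, control 5, ablated 2, ablated 5 or ablated 6 was left out. With a weight per library all 6 were positive. Elovl6, which lengthens palmitate to stearate, was at 9.87, 8.32, 9.02, 10.8 and 12.9 TPM in controls 1 to 5 and at 13.9, 11.3, 10.6, 28.4, 26.2, 11.1 and 29.6 TPM in ablated 1 to 7. Ablated 1, 4, 5 and 7 were above every control, ablated 1 by little, and ablated 2, 3 and 6 lay within the control range. The log2 difference was 0.73 (0.11 to 1.35; limma adjusted p = 0.31). Acaca, which makes malonyl-CoA, was at 8.53, 7.21, 7.29, 7.93 and 10.2 TPM in controls and 8.37 to 15.6 TPM, median 9.88, in ablated libraries. Its log2 difference was 0.37 (0.02 to 0.71; limma adjusted p = 0.375).

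Fasn, the fatty acid synthase, was at 10.4 to 23.4 TPM in controls and 7.92 to 35.9 TPM in ablated libraries, and its log2 difference was 0.36 (-0.38 to 1.09). Acly, which makes cytosolic acetyl-CoA from citrate for both arms, was at 106 to 169.6 TPM in controls and 59.7 to 244 TPM in ablated libraries, with a log2 difference of -0.01 (-0.64 to 0.63). The log2 ratio of Fasn to Hmgcs1, which sets the fatty acid arm against the sterol arm, was -3.14 ± 0.32 (SD, n = 5) in controls and -3.26 ± 0.38 (SD, n = 7) in ablated libraries. The difference of -0.12 was smaller than either SD (exact permutation, two-sided p = 0.571, adjusted p = 0.761).

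Scd1 and Scd2 are neighbouring genes for desaturases that turn stearate into oleate, and Scd2 was the most abundant member in this tissue by mean control level, at 212 ± 69.5 TPM (SD, n = 5). Scd2 was at 258, 126, 147, 263 and 267 TPM in controls and 22.8, 146, 287, 462, 242, 111 and 341 TPM in ablated libraries. Ablated 1, far below the rest, and ablated 6 were below every control, and ablated 3, 4 and 7 were above every control. The log2 difference was -0.25 (-1.55 to 1.05) although the ablated mean in TPM, 230.4, was above that of controls, as the low value of ablated 1 weighs more on the log scale. Scd1 was at 17.9 to 36.0 TPM in controls and 10.2 to 34.1 TPM in ablated libraries, and its log2 difference was -0.27 (-0.99 to 0.46). The log2 ratio of Scd1 to Scd2 was -3.19 ± 0.51 (SD, n = 5) in controls and -3.21 ± 0.95 (SD, n = 7) in ablated libraries, with ablated 1 at -1.13 and the other ablated libraries between -3.80 and -3.06. The difference was -0.02 (exact permutation, two-sided p = 0.904, adjusted p = 0.904).

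**Figure D4:**
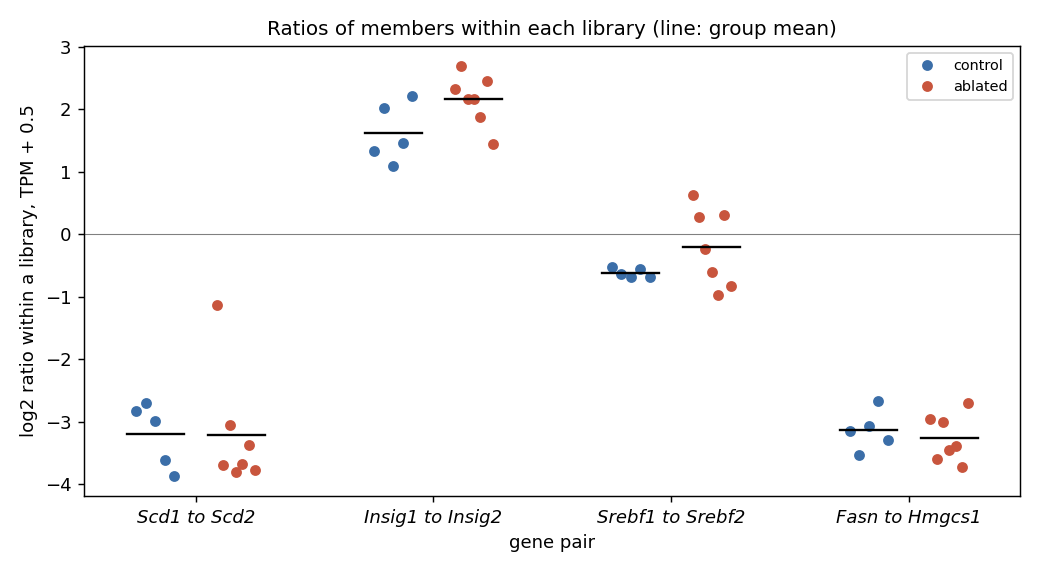
Log2 ratio of 4 pairs of members within each library, from TPM + 0.5, with a point for each library and a line at each group mean (n = 5 control, n = 7 ablated). The control values of Srebf1 to Srebf2 lie between -0.68 and -0.53 while the ablated ones run from -0.97 to 0.63, and ablated 1 stands alone at -1.13 for Scd1 to Scd2.

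Libraries of the same group differed in a way that many members shared. Within controls, control 5 was the highest of 5 for 25 of 30 members and control 3 the lowest for 19; among all genes tested, control 5 was highest for 18.8% and control 3 lowest for 23.6%. Within ablated libraries, ablated 4 was the highest of 7 for 25 members and ablated 1 the lowest for 26, against 15.2% and 42.3% of all genes. Over all 12 libraries, ablated 4 was the highest for 24 members, against 12.9% of all genes. The pattern was tightest in the 18 sterol enzymes, of which control 5 had the highest control level in 17 and ablated 4 the highest ablated level in 17. The summed level of the members was 0.103% of all TPM in ablated 1, 0.120% in control 3, 0.232% in control 5 and 0.346% in ablated 4.

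**Figure D5:**
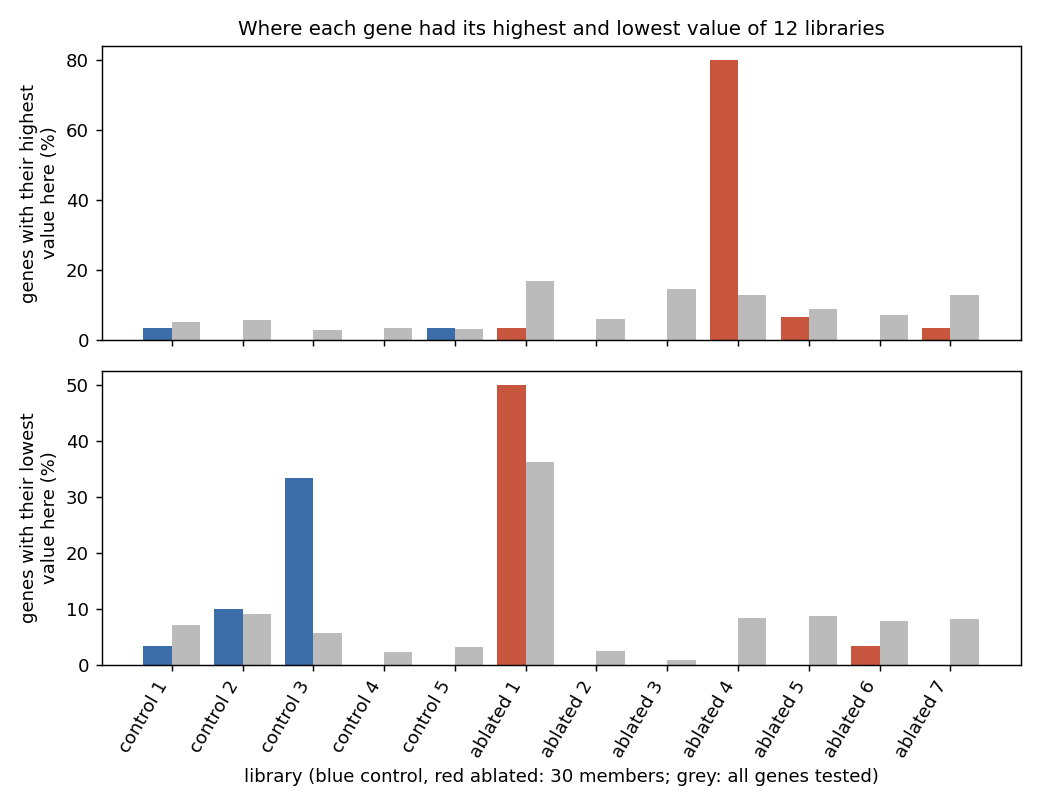
Percent of genes with their highest (upper panel) and lowest (lower panel) level of the 12 libraries in each library, for the 30 members (blue control, red ablated) and for all genes tested with a symbol (grey). Ablated 4 holds the highest value of 24 members and 12.9% of all genes, and the lowest values of members lie mostly in ablated 1 (15) and control 3 (10).

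On the log2 scale the median SD of a member was 0.412 among controls and 0.488 among ablated libraries, against 0.196 and 0.364 for all genes. The control SD was above that all-gene median in 26 of 30 members, and below it in Ebp, Scap, Insig2 and Acaca. The SD was greater among ablated libraries for 20 of 30 members and for 83.6% of all genes. Members with a wider spread among controls than among ablated libraries included Pmvk, Fdps, Fdft1, Insig1 and Dhcr7.

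Some other values differed between the ablated libraries in which Idi1 and Stard4 were high and those in which they were low. Fits with the mitochondrial share and with the epithelial markers as covariates are given further on, but whether either caused the differences was not tested. Ablated 4, 5 and 7, in which Idi1 and Stard4 were high, had mitochondrial shares of 6.07%, 6.45% and 5.20%. Ablated 1, 2 and 6, in which these genes were low, had 25.6%, 10.2% and 14.2%. Ablated 3, with both genes just above the controls, had 6.99%. In controls 1 to 5 the share was 11.6%, 11.8%, 13.3%, 7.44% and 9.09%. Idi1 was at 17.1, 6.48, 5.34, 13.3 and 16.3 TPM in these controls. Hmgcs1 did not split the ablated libraries this way, at 215 TPM in ablated 2 and 189 TPM in ablated 5. The epithelial cadherin Cdh1, chosen after its values were seen, was at 279, 266 and 325 TPM in ablated 4, 5 and 7 and at 44.6, 51.0 and 38.0 TPM in ablated 1, 2 and 6. Of 14 markers of colonic epithelium, Cdh1 among them, 0 were called, and their summed level was 18395 to 23007 TPM in controls and 18488 to 28898 TPM in ablated libraries. The sum differed less than Cdh1, at 28898, 26395 and 27964 TPM in ablated 4, 5 and 7 and 18488, 25529 and 21176 TPM in ablated 1, 2 and 6. In the same order, Slc26a3 was at 1489, 1168 and 1214 TPM and at 904, 1059 and 781 TPM. Car1 did not split this way, at 4139, 3261 and 2669 TPM and at 1063, 3681 and 2700 TPM. Of 8 goblet cell markers 3 rose, the secreted products Tff3, Zg16 and Fcgbp (limma adjusted p = 0.0061, 0.00844 and 0.0389), and the list summed to 11470 to 16120.1 TPM in controls and 18847 to 31572 TPM in ablated libraries. Of 9 adipocyte markers tested, 0 were called, and the list of 10 summed to 128 to 311 TPM in controls and 135 to 244 TPM in ablated libraries; its member Lep did not reach the minimum level.

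With the mitochondrial share as a covariate 0 members were called, against 2.07% of all genes called higher; 26 had positive log2 differences, and 13 of 30 had an unadjusted p under 0.05, against 20.4% of all genes in either direction. With the epithelial markers as a covariate 0 were called, against 2.21% of all genes called higher. In that fit 5 of 30 had an unadjusted p under 0.05, against 22.9% of all genes in either direction. There 20 were positive, the median was 0.10, and Idi1 and Stard4 came to -0.29 and -0.12. Without ablated 1, 0 members were called against 0.78% of all genes called higher; 29 were positive, 15 had an unadjusted p under 0.05 against 16.0% of all genes in either direction, and the median was 0.43 against 0.07. Without ablated 4 the median was 0.18, and without control 5 it was 0.49. The number of members with an unadjusted p under 0.05 fell to 4 without ablated 4 (10.6% of all genes) and rose to 14 without control 5 (11.3%). It fell to 1 without control 2 (8.49% of all genes) and to 1 without control 3 (9.13%), so the count depends on single libraries. Of the 26 alternatives, only a fit that weighted libraries by their scatter called any members, Acaca and Elovl6, both higher, while calling 4.05% of all genes higher; ablated 1 had a weight of 0.142 in it.

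The authors' deposited table, from edgeR, gave no call either: 0 of the 30 members had a false discovery rate under 0.05 there, against 0.25% of genes called higher and 1.09% called lower. Positive log2 fold changes were given to 28 members by the authors' deposited table, with a median of 0.33 against 0.05 for all genes above 0. There 6 members had an unadjusted p under 0.05 (edgeR), against 11.2% of genes, and Insig1 had the lowest false discovery rate, 0.248. Among members, the largest log2 fold changes in the authors' deposited table were those of Idi1, 1.14, and Stard4, 0.95. Their false discovery rates there were 0.697 and 0.656 (edgeR). The limma fit on log2 levels gave these genes smaller differences, 0.44 and 0.48.

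Neighbouring pathways were read from 5 lists of further genes, of which 69 were tested. None was called in either direction, and the median log2 difference was 0.08. A positive difference was found in 40 (58.0%), near the 55.7% of all genes, and an unadjusted p under 0.05 in 6 (8.70%), against 11.8% of all genes. Dgat2, which makes triglycerides, was at 20.2 to 32.3 TPM in controls and 25.0 to 58.0 TPM in ablated libraries, with a log2 difference of 0.62 (0.20 to 1.03; limma adjusted p = 0.177). The mitochondrial carnitine carrier Slc25a20 was at 149 to 204 TPM and 211 to 338 TPM, so that its groups did not overlap. Of all genes, 1.33% had every ablated library above every control in this way. The log2 difference of Slc25a20 was 0.43 (0.14 to 0.73, limma adjusted p = 0.184). The elongase Elovl5 of polyunsaturated fatty acids was at 34.5 to 38.0 TPM in controls and 17.4 to 36.6 TPM in ablated libraries, a log2 difference of -0.40 (-0.73 to -0.08; limma adjusted p = 0.283).

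In the list of sterol export, esterification and oxysterol sensing, 11 of 18 tested genes had positive log2 differences, with a median of 0.13. The pair of transporters that pump sterols out of cells, Abcg5 and Abcg8, had negative ones. Abcg5 was at 14.2, 8.87, 12.8, 10.6 and 10.98 TPM in controls and at 21.6, 6.34, 9.85, 4.85, 2.31, 6.01 and 3.14 TPM in ablated libraries. Ablated 1 was the highest of all and 5 of the other 6 were below every control, and the log2 difference was -0.84 (-1.72 to 0.04, limma adjusted p = 0.453). Abcg8 was also highest in ablated 1, at 5.43 TPM, and its log2 difference was -0.59 (-1.25 to 0.06). Of 8 genes of SREBP processing 5 were positive, with a median of 0.03; Erlin1, which acts in the degradation of sterol-regulated membrane proteins, had 0.33. Of 7 further sterol and isoprenoid genes 3 were positive, with a median of -0.07; the isomerase-like gene Ebpl had -0.27 and geranylgeranyl diphosphate synthase Ggps1 had 0.21. The further fatty acid and triglyceride genes had 11 of 20 positive and a median of 0.06, and the fatty acid oxidation genes 10 of 16 and 0.08.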

How the data were processed

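RNA of full-thickness colon was measured in 5 control and 7 ablated libraries. Per the labels, polyadenylated RNA was used for stranded sequencing. The submitters' processing notes name bcl2fastq 2.17, HISAT, featureCounts and build mm10. The authors deposited TPM per gene, and the 12 per-sample files equal the series table. The authors' deposited table also gives, from edgeR, each gene's F score, its p-value with the false discovery rate, its log2 CPM averaged over libraries and its log2 fold change; its design and filter are not given in the sources used here.

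Whole reads were recovered from the TPM for 22840 of 22842 genes above 0 (within 0.05 read), giving a depth of 13.4 to 26.9 M reads. The recovered mean log2 CPM had r = 1.000 across genes with that of the authors. As the unit is TPM, the main test was limma (version 3.58.1, R 4.3.3, with a variance trend) on log2(TPM + 0.5), two-sided, adjusted by Benjamini and Hochberg over 16164 genes. It was tried on simulated data with independent genes and the same spread in both groups, which these data do not have. Ratios were compared by exact permutation in SciPy 1.17.1. Figures used matplotlib 3.10.9 and tables pandas 2.3.3 in Python 3.11.15. Promoter sequences and gene positions are from RefSeq (GRCm38.p6).

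Members, lists and tests were chosen with earlier results of these data known. Named are all 30 members, Actl6b, and of each further list the called genes, up to 4 by p, or the 2 with the smallest p. A few genes named by this rule are left out here. Cdh1 and Fads2 were chosen after their values were seen. Alternatives changed the added constant, minimum, scaling, variance model, covariates, block and libraries, and ran voom on the recovered reads.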

Additional observations from a re-analysis of the deposited data

Results flagged for a closer look

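Each member's TPM was examined within the 5 control and the 7 ablated libraries, as were 4 ratios, 68 groups in all. In 9 of them 1 library lay far from the others of its group by Dixon's gap test. For normally distributed values chance gives about 1 in 20 for each group, and TPM values need not be normal. The members moved together across libraries, so the groups are not independent and the 9 cannot be weighed against that rate. Control 5 was far above the other controls for Acat2 (64.1 TPM), Mvk (49.9 TPM), Mvd (82.9 TPM), Fdft1 (112 TPM) and Lss (27.4 TPM), all sterol enzymes. Ablated 4 was far above the other ablated libraries for Fdps (234 TPM) and Fdft1 (147 TPM). Control 1 was far above the other controls for the desaturase Scd1 (36.0 TPM). Ablated 1 stood apart in the log2 ratio of Scd1 to Scd2, at -1.13.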

How the results depend on the processing

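Of all genes, 231 were called (68 higher, 163 lower). The count was 349 with no minimum level and 1092 with a weight per library (654 higher, 438 lower). It was 757 with the epithelial marker covariate (358 higher, 399 lower) and 693 with the mitochondrial share (334 higher, 359 lower). It ranged from 128 (without control 2) to 328 (without ablated 1) with 1 library left out, and was 137 without control 3. Voom on recovered reads called 264 (48 higher, 216 lower). The cause was not tested. Members called higher numbered 2 with a weight per library, Acaca (log2 difference 0.51, adjusted p = 0.0473) and Elovl6 (1.03, adjusted p = 0.027), and 0 in the other 25 alternatives; none was called lower. In all 26 alternatives 20 members stayed positive, and 10 had both signs, Acly, Cyp51, Ebp, Hsd17b7, Idi1, Insig2, Scd1, Scd2, Srebf2 and Stard4. Median scaling and quantile scaling left 26 and 25 members positive, with medians of 0.28 and 0.23. No ratio passed with another added constant or with 1 library left out; in the latter case the difference was -0.37 to 0.11 for Scd1 to Scd2, 0.41 to 0.68 for Insig1 to Insig2, 0.28 to 0.54 for Srebf1 to Srebf2 and -0.22 to 0.00 for Fasn to Hmgcs1.

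The deviations of same-numbered libraries from their group means had r = 0.01, 0.36, -0.27, 0.20 and 0.16 for numbers 1 to 5, so the numbers were not taken as pairs. With the replicate block the fit called 84 genes (15 higher, 69 lower) and 0 members. In that fit 2 members had an unadjusted p under 0.05, against 9.30% of all genes. The ratio differences under the block, over 5 pairs, were 0.12, 0.62, 0.44 and -0.14 in the order above, with exact p of 0.875, 0.125, 0.25 and 0.625; over 5 pairs the smallest possible p is 0.0625, so none could pass. Each member had at least 61 recovered reads in every library.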

Other observations

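Among the other cell types of the colon wall, the collagen gene Col6a1 of fibroblasts rose, from 30.6 ± 4.71 TPM (SD, n = 5) to 48.6 ± 6.65 TPM (SD, n = 7; limma adjusted p = 0.0212), and was the 1 of 7 fibroblast markers called. No marker was called among 6 tested of proliferating crypt cells, 8 of smooth muscle, 10 of enteric glia and Schwann cells, 8 of macrophages, 9 of T, B and plasma cells, 6 of endothelium, 5 of mesothelium, 7 of skeletal muscle and 4 of erythrocytes. Smooth muscle markers summed to 6660.4 to 10382 TPM in controls and 6887 to 22938 TPM in ablated libraries, with ablated 6 the highest.

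The fatty acid desaturase Fads2 is not in the module and was read after the values of Idi1 and Stard4 were seen. Fads2 was at 243, 167 and 227 TPM in ablated 4, 5 and 7, in which these genes were high, and at 18.6, 53.8 and 35.6 TPM in ablated 1, 2 and 6, in which they were low. It did not pass the test between the groups (limma adjusted p = 0.95).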
